A study of Mus musculus with 12 samples.

Results

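The p53 set described here comprised p53 itself and target genes that act in cell cycle arrest, DNA repair and death signalling, without the BCL2 family. Of 32 genes listed, 28 had a probe set that the platform annotation pairs with that gene alone, and each of the 28 had exactly 1 such probe set. They are 28 of 18820 genes measured in this way. Trp53, which encodes p53, Gdf15, Fdxr and Ddb2 had no such probe set and were not analysed here, so the level of p53 mRNA is not given.

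RNA of the whole proximal jejunum was profiled on 12 Affymetrix arrays, 1 per mouse, with 3 mice in each of 4 groups. These were TLR2 knockout mice given methotrexate, untreated knockout mice, wild-type mice given methotrexate and untreated wild-type mice. The knockout strain is labelled B6.129-Tlr2tm1Kir/J and the wild type C57BL6/J. Methotrexate (MTX), an antifolate that blocks thymidine and purine synthesis, was given as daily intraperitoneal doses of 40 mg per kg over 4 days, with the jejunum collected on day 7. The labels record neither an injection nor a collection day for the untreated mice, so injection and sampling day cannot be told apart from the drug. The labels give neither the age nor the sex of the mice.

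p53 is a transcription factor that is held at a low level by the ubiquitin ligase Mdm2 and accumulates when DNA is damaged or nucleotides run short. It then switches on genes that stop the cell cycle, aid repair or prepare the cell for death, and it also switches on Mdm2, which closes a feedback loop. In the intestine, crypt cells are the cells best known for a strong p53 response to radiation and cytotoxic drugs.

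Members of the set were read against the promoter windows that RefSeq gives for mouse assembly GRCm38.p6, each running from 250 bases before to 50 bases after a transcription start. Shown are the windows of the 3 members with the largest called rise in treated knockout mice (Ddit4, Phlda3 and Gtse1), and of Cdkn1a and Mdm2, the best known p53 targets, with the p53 half-site in capitals. The p53 half-site is a 10-base motif that reads the same on both strands, and p53 binds a pair of them.
Cdkn1a (upstream start), chr17:29090729-29091028, + strand: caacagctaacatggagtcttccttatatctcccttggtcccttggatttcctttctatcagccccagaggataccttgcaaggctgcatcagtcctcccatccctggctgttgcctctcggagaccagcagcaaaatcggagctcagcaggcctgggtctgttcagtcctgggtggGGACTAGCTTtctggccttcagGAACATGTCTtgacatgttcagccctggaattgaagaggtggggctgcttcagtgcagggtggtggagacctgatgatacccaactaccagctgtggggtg
Mdm2, chr10:117710709-117711008, - strand: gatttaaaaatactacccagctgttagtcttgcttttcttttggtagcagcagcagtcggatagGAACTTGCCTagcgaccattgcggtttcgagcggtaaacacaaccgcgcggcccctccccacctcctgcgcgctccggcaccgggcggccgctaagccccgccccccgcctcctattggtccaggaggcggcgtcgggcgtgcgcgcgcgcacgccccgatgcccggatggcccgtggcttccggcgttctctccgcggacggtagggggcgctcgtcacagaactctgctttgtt
Gtse1 (downstream start), chr15:85859696-85859995, + strand: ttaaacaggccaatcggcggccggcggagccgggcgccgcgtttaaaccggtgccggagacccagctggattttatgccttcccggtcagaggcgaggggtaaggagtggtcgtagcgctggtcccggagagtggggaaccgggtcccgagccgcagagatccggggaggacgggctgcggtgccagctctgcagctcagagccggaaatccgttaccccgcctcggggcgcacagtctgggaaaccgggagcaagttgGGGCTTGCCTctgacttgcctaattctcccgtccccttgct
Ddit4, chr10:59951721-59952020, - strand: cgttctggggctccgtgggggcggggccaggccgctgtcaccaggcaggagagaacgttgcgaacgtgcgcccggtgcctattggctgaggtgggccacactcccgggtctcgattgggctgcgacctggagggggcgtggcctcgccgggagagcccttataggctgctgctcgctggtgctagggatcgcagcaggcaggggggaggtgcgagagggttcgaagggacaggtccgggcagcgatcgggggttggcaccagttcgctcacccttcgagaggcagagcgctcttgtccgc
Phlda3, chr1:135765835-135766134, + strand: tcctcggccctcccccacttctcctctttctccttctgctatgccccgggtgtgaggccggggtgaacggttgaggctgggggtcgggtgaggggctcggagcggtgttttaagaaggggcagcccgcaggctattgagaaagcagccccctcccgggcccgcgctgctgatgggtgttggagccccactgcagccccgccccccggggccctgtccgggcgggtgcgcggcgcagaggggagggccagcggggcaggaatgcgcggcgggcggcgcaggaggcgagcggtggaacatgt
The Cdkn1a window holds 2 half-sites, which begin 73 and 51 bases before the start and lie close enough together to count as a full site (a spacer of 0 to 13 bases). The Mdm2 window holds 1, beginning 186 bases before the start, and the Gtse1 window holds 1, beginning at base 10 after the start. No exact half-site lies in the windows of Ddit4 and Phlda3, nor in the other window of Cdkn1a or of Gtse1. Of the 23 measured members with a window, 10 had a half-site in at least 1 window, against 9.55% of 27025 genes. A full site was present in 1 of the 30 windows of measured members and in 0.0731% of 32851 windows. The 10 were Aen, Ccng1, Gtse1 and Polk, which rose in treated knockout mice, Gadd45a, which fell, and Cdkn1a, Ei24, Mdm2, Rps27l and Sesn1, which passed no test. These matches describe the letters of the windows and are not measurements of p53 binding.

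Before the results, the arrays themselves need a description. Between arrays of 1 group Pearson's r over all probe sets was 0.967 to 0.992, and between the treated knockout and any other group it was 0.916 to 0.948. RNA of pancreatic acinar cells was high in 7 of the 12 arrays, where the mean log2 signal of 11 acinar markers was 11.9 to 12.5, against 4.14 to 5.59 elsewhere. It was high in 2 of 3 arrays of each knockout group, 1 of 3 in treated and 2 of 3 in untreated wild-type mice. The members are therefore also given within each kind of array. In the jejunum itself, all 12 enterocyte markers fell in treated knockout mice, where their mean log2 signal was 6.38 to 8.36, against 11.4 to 11.5 in untreated knockout mice. In whole tissue, fewer cells of a type and less RNA per cell cannot be told apart.

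**Figure D1:**
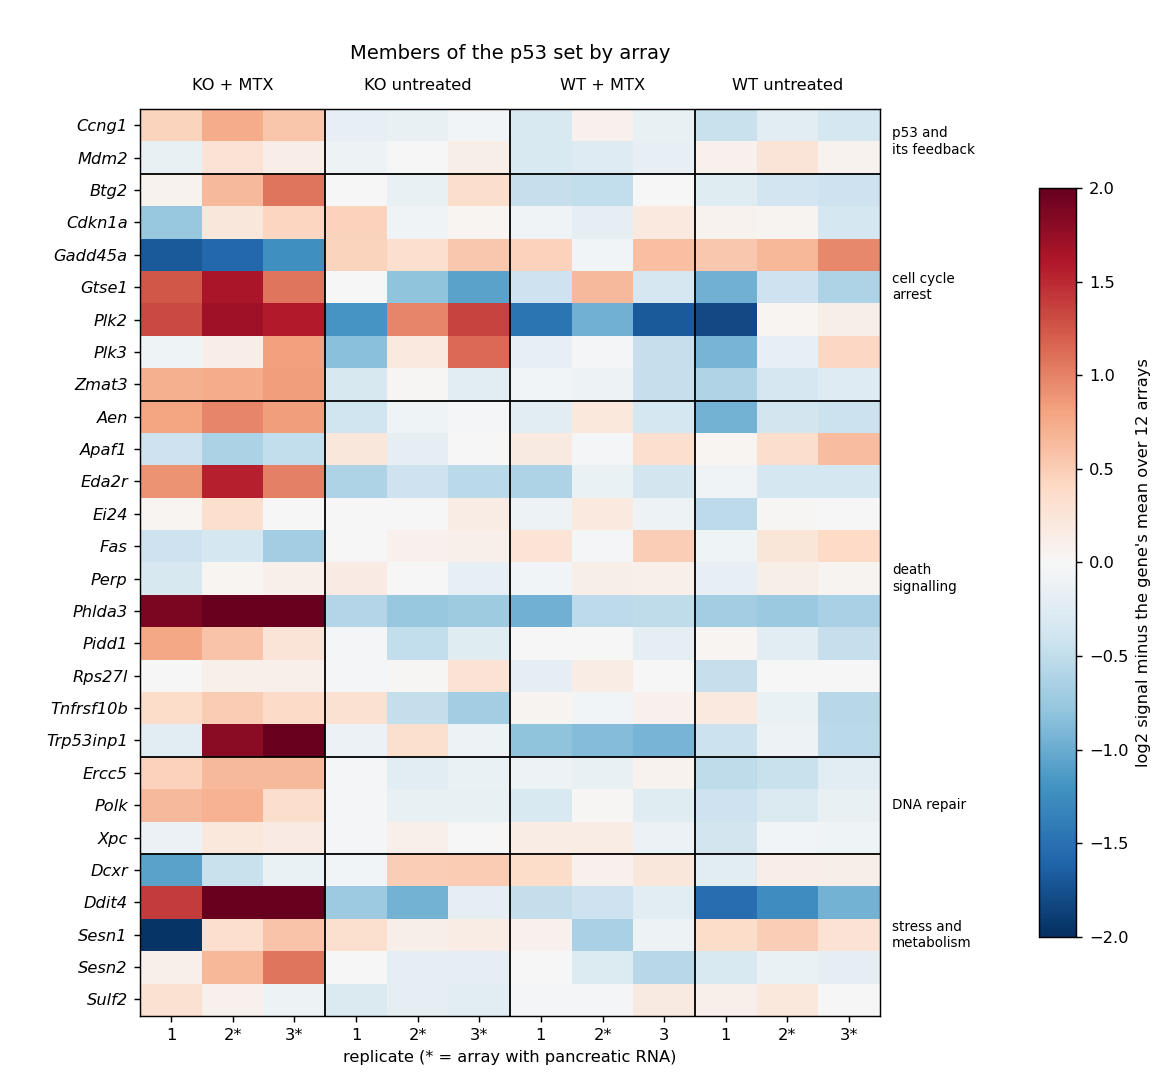
Log2 signal of the 28 measured members (rows, grouped by role) in the 12 arrays (columns, 3 per group), as the difference from each gene's mean over all arrays. The colour scale is cut at 2 in both directions, and stars mark arrays with pancreatic RNA. Phlda3, Ddit4, Eda2r and Gtse1 are high in all 3 arrays of treated knockout mice and Gadd45a is low in them, while Sesn1 and Trp53inp1 differ among those 3 arrays.

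In knockout mice, methotrexate was followed by higher signal of most members that changed, but not of Cdkn1a or Mdm2. Of the 28 members, 13 rose and 4 fell, and 11 did not pass limma's test over all genes (Benjamini-Hochberg adjusted p under 0.05). The largest rises were those of Ddit4 and Phlda3, at 7.21-fold and 6.65-fold, followed by Gtse1 and Eda2r, and the largest fall was that of Gadd45a. The share of members called was 60.7%, against 34.8% of all 18820 genes. Separately by direction, 18.8% of all genes rose and 16% fell. A called change of at least 1 on the log2 scale was reached by 6 members and by 14.8% of all genes. The median log2 change of the members was 0.60, against -0.02 for all genes, and their median absolute change was 0.71 against 0.28. Of the 28 members, arrays of treated and untreated knockout mice did not overlap for 13 in the upward and 4 in the downward direction, where 23% and 21.6% of all genes were so. These were the 17 called members.

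**Figure D2:**
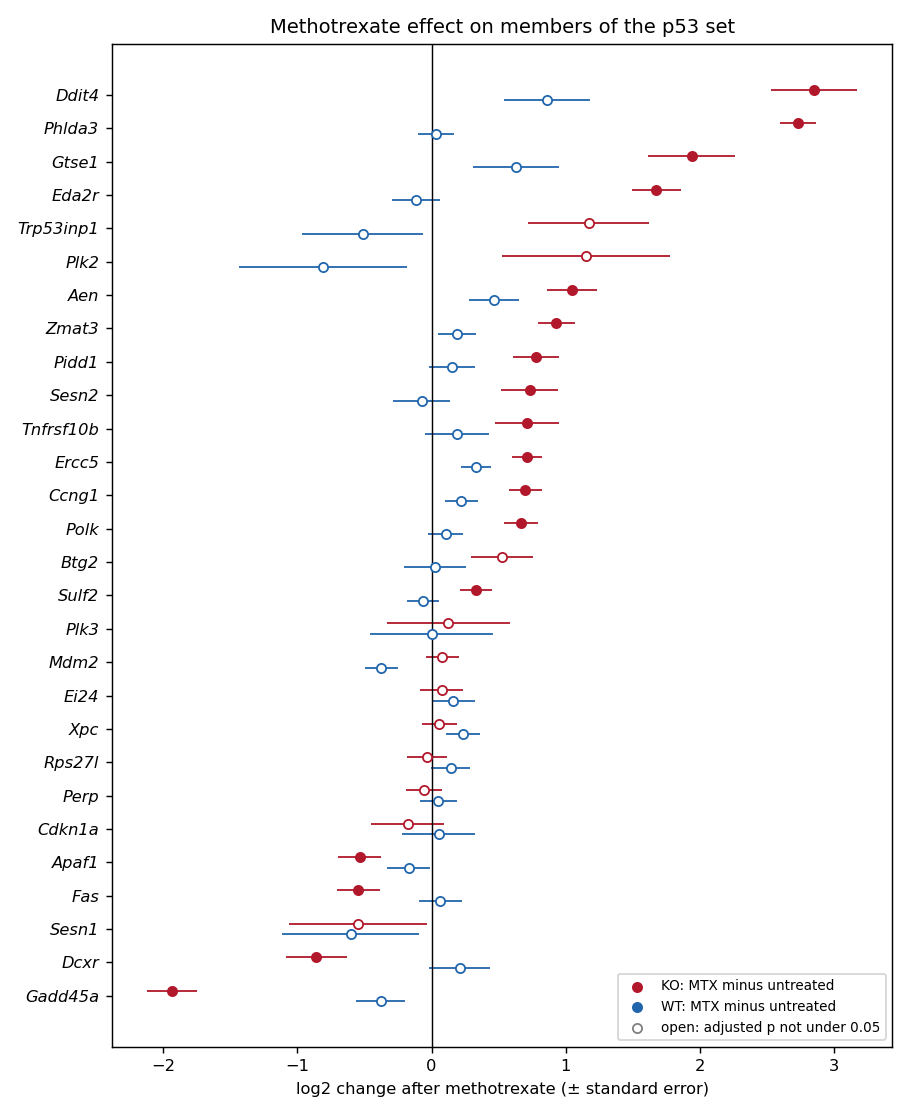
Log2 change after methotrexate (x axis, with limma's standard error as bars) of the 28 members in knockout mice (red, upper point of each pair) and wild-type mice (blue, lower point). Filled points have an adjusted p under 0.05. In knockout mice 17 points are filled, 13 to the right of 0 and 4 to the left, and in wild-type mice none is.

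The feedback arm was read by Mdm2 and by Ccng1, whose product cyclin G1 brings a phosphatase to Mdm2. Log2 signal of Mdm2 was 7.92, 8.35 and 8.20 in treated knockout mice, against 7.96, 8.08 and 8.19 in untreated knockout mice. The groups overlapped, and the log2 change of 0.08 ± 0.12 (SE) had a 95% interval from -0.19 to 0.35 (limma adjusted p = 0.662). Ccng1 stood at 9.76, 10.06 and 9.87 in treated knockout mice, against 9.15, 9.17 and 9.27 in untreated ones. All treated arrays were higher, by 0.70 ± 0.12 on the log2 scale (limma adjusted p = 8.80e-04). That call was lost when the 7 arrays with pancreatic RNA were left out (log2 change 0.62, adjusted p = 0.0602).

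Among the 7 measured members that act on the cell cycle, 2 rose, 1 fell and 4 passed no test, so that 42.9% were called against 34.8% of all genes. Cdkn1a encodes p21, the inhibitor of cyclin-dependent kinases through which p53 stops the cycle. Its log2 signal was 9.34, 10.32 and 10.52 in treated knockout mice, against 10.55, 10.03 and 10.13 in untreated knockout mice. The lowest of these 6 values was that of treated replicate 1, the groups overlapped, and the change was -0.18 ± 0.27 (95% interval -0.78 to 0.42, limma adjusted p = 0.673).

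Gtse1, expressed in S and G2 phase, encodes a protein that binds p53 and moves it out of the nucleus. It had 6.90, 7.30 and 6.74 in treated knockout mice, against 5.66, 4.86 and 4.60 in untreated knockout mice, a rise of 1.94 ± 0.32 on the log2 scale (limma adjusted p = 6.08e-04). Of 11 markers of proliferating cells, 2 rose in the same comparison, Cdk1 by 0.93 ± 0.29 and Mcm5 by 0.82 ± 0.27. That is 18.2%, against 18.8% of all genes, and no more than the general rate of calls. All 11 nevertheless had a positive change, with a median of 0.59 on the log2 scale, against -0.02 for all genes. In wild-type mice all 11 were also positive after methotrexate, with a median of 0.41 and no call. The mean log2 signal of the 11 markers was 8.96, 7.91 and 7.63 in treated knockout mice and 7.42 to 8.01 in untreated knockout mice. Only treated replicate 1 lay above the untreated knockout arrays. The part of cycling cells in the Gtse1 result was not tested. Zmat3, an RNA-binding zinc finger protein, rose by 0.93 ± 0.14, with all 3 treated arrays higher.

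Gadd45a, a stress gene named for growth arrest and DNA damage, went the other way. Its log2 signal was 4.95, 5.06 and 5.41 in treated knockout mice, against 7.08, 6.97 and 7.18 in untreated knockout mice. Every treated array was lower by more than the spread within either group, and the fall was -1.93 ± 0.19 (limma adjusted p = 9.65e-06). The antiproliferative gene Btg2 changed by 0.53 ± 0.23 (limma adjusted p = 0.104) and the polo-like kinase gene Plk3 by 0.13 ± 0.46 (adjusted p = 0.869).

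Plk2, another stress-induced polo-like kinase, differed among untreated mice by kind of array. It read 8.32, 8.69 and 8.58 in treated knockout mice, against 5.83, 7.97 and 8.35 in untreated knockout mice, and the change of 1.15 ± 0.63 did not pass (limma adjusted p = 0.191). The low untreated array was the one without pancreatic RNA. The same order held in untreated wild-type mice, with 5.19 in the array without and 7.04 and 7.11 in the arrays with pancreatic RNA. The part of pancreatic RNA in the level of Plk2 was not tested.

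**Figure D3:**
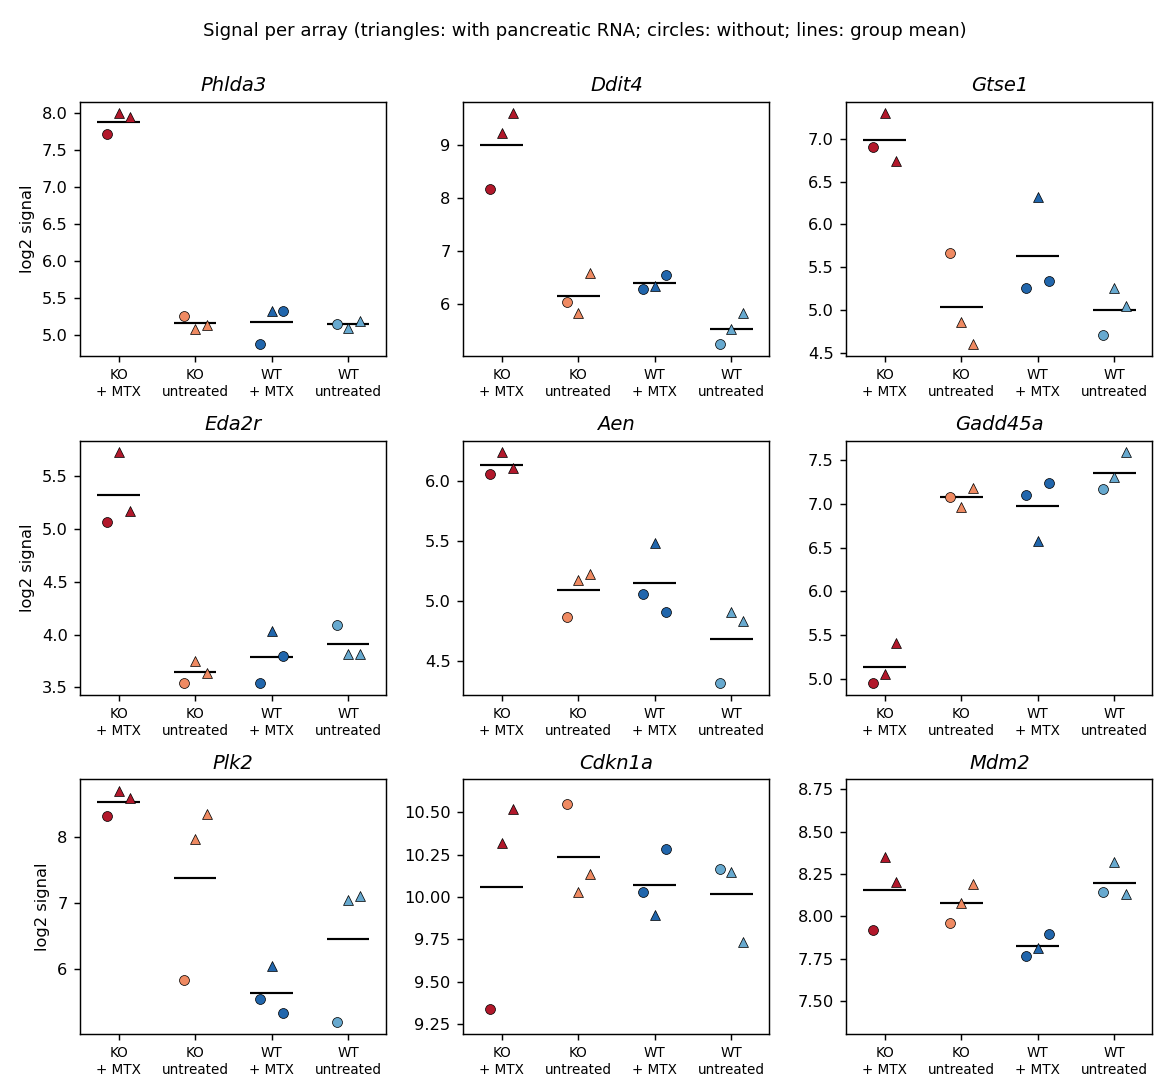
Log2 signal (y axes, each panel with its own range) of 9 members in each of the 12 arrays, by group. Triangles are arrays with pancreatic RNA, circles those without, and lines are group means. Treated knockout arrays of Phlda3, Ddit4, Gtse1, Eda2r and Aen lie above and those of Gadd45a below all arrays of the other 3 groups, while those of Cdkn1a and Mdm2 overlap them.

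Of the 11 members of death signalling, 5 rose, 2 fell and 4 passed no test (63.6% called, against 34.8% of all genes). Phlda3 encodes a small protein with a pleckstrin homology domain that keeps the survival kinase Akt from the membrane. Its log2 signal was 7.72, 8.0 and 7.95 in treated knockout mice, against 5.26, 5.08 and 5.13 in untreated knockout mice. The groups were far apart relative to their spread, and the rise of 2.73 ± 0.13 had the smallest p of the set (limma adjusted p = 6.90e-08). Eda2r, a receptor of the TNF receptor family for ectodysplasin A2, read 5.06, 5.73 and 5.17 in treated knockout mice, against 3.54, 3.75 and 3.63 in untreated knockout mice. It rose by 1.68 ± 0.18 (limma adjusted p = 2.39e-05).

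The nuclease gene Aen, whose product enhances apoptosis, had 6.06, 6.24 and 6.11 in treated knockout mice, against 4.87, 5.18 and 5.22 in untreated knockout mice, a rise of 1.05 ± 0.18. Pidd1, the scaffold of a complex that activates an initiator caspase, rose by 0.78 ± 0.17, with all 3 treated arrays higher. The death receptor gene Tnfrsf10b rose by 0.71 ± 0.24 (limma adjusted p = 0.0375). That call was lost in 8 of the 12 fits that left out 1 array, with an adjusted p of up to 0.148, and without the arrays that held pancreatic RNA the change was 0.07 (adjusted p = 0.847).

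Both falls in this arm were small. Fas, the other death receptor, read 5.95, 6.02 and 5.68 in treated knockout mice, against 6.36, 6.46 and 6.47 in untreated knockout mice, and fell by 0.55 ± 0.16 (limma adjusted p = 0.0191). Apaf1, the scaffold of the apoptosome, fell by 0.53 ± 0.16 (limma adjusted p = 0.0227). The call of Fas was lost without treated replicate 3 (adjusted p = 0.0712) or untreated replicate 2 or 3 (0.0553 and 0.0569) of the knockout. That of Apaf1 was lost without treated replicate 2 (adjusted p = 0.0793) or untreated replicate 1 or 3 (0.0812 and 0.0540) of the knockout. Without the arrays that held pancreatic RNA neither call was kept, with a change of -0.41 for Fas (adjusted p = 0.204) and -0.65 for Apaf1 (adjusted p = 0.0520).

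The other members of this arm passed no test in knockout mice. Perp, a desmosomal membrane protein, changed by -0.06 ± 0.14, Ei24, a protein of the endoplasmic reticulum, by 0.08 ± 0.16, and Rps27l, a ribosomal protein paralogue, by -0.04 ± 0.15. Trp53inp1, a nuclear protein that enhances p53 activity and autophagy, read 7.32, 9.35 and 9.56 in treated knockout mice, against 7.42, 7.86 and 7.44 in untreated ones. Treated replicate 1, the array without pancreatic RNA, did not exceed the untreated knockout arrays, and the change of 1.17 ± 0.45 did not pass (limma adjusted p = 0.0663).

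In DNA repair, 2 of 3 measured members rose, against 18.8% of all genes. Ercc5, the endonuclease that cuts 3′ of a lesion in nucleotide excision repair, had 6.96, 7.15 and 7.14 in treated knockout mice, against 6.47, 6.27 and 6.37 in untreated knockout mice. It rose by 0.71 ± 0.11 (limma adjusted p = 4.11e-04), and by 0.49 (adjusted p = 0.122) without the arrays that held pancreatic RNA. Polk, a DNA polymerase that copies past damaged bases, rose by 0.67 ± 0.13 (limma adjusted p = 1.56e-03), with all 3 treated arrays higher. Xpc, which recognises lesions in the same repair pathway, changed by 0.06 ± 0.13 (adjusted p = 0.775).

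Of the 5 measured members of stress and metabolism, 3 rose, 1 fell and 1 passed no test (80% called, against 34.8% of all genes). Ddit4, an inhibitor of the growth kinase complex mTORC1 that also responds to hypoxia and glucocorticoids, had the largest rise of the set. Its log2 signal was 8.16, 9.23 and 9.60 in treated knockout mice, against 6.04, 5.83 and 6.58 in untreated knockout mice. The lowest treated array stood well above the highest untreated one, and the rise was 2.85 ± 0.32 (limma adjusted p = 3.31e-05). Sesn2, a second inhibitor of mTORC1, rose by 0.73 ± 0.21 (limma adjusted p = 0.0194). Its treated arrays read 5.95, 6.51 and 6.91, against 5.84, 5.67 and 5.66 in untreated knockout mice, so that replicate 1 exceeded the untreated arrays only slightly.

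The Sesn2 call was lost without treated replicate 2 or 3 or untreated replicate 2 or 3 of the knockout, with an adjusted p of up to 0.0670, and with only the knockout arrays in the fit (0.0657). Without the arrays that held pancreatic RNA, Sesn2 changed by 0.10 (adjusted p = 0.861). The related Sesn1 read 6.55, 8.85 and 9.09 in treated knockout mice, against 8.83, 8.64 and 8.66 in untreated knockout mice. Replicate 1 alone was low, and the change of -0.55 ± 0.51 did not pass (limma adjusted p = 0.462). Dcxr, an epithelial reductase of dicarbonyl compounds and xylulose, fell by 0.86 ± 0.23 (limma adjusted p = 0.0114; 0.0575 with only the knockout arrays in the fit). It was at 6.27, 6.89 and 7.19 in treated knockout mice, against 7.27, 7.82 and 7.83 in untreated knockout mice, with no overlap.

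Sulf2, an extracellular enzyme that trims sulfate from heparan sulfate, rose by 0.33 ± 0.12 (limma adjusted p = 0.0493). That call was the weakest of the 17: it was lost in 11 of 12 fits that left out 1 array. It was also lost with the replicate number (limma adjusted p = 0.0772) or pancreatic RNA (0.0508) as a block.

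Of the 17 members called in knockout mice, 14 changed by at least 0.2 on the log2 scale within both kinds of array, and the others were Sesn2, Tnfrsf10b and Sulf2. Their direction within each kind is given by the lack of overlap between the groups and is no separate evidence. Phlda3 rose by 2.46 on the log2 scale in the pair of arrays without pancreatic RNA and by 2.87 in the arrays with it (2 treated against 2 untreated). For Ddit4 the values were 2.12 and 3.21, for Eda2r 1.52 and 1.75, for Gtse1 1.24 and 2.29, and for Gadd45a -2.12 and -1.84. Sesn2 (0.10 and 1.04) and Tnfrsf10b (0.07 and 1.04) differed most between the kinds among the rises under 1. Several members that passed no test differed in sign or size: Cdkn1a was at -1.21 without and 0.34 with pancreatic RNA, Sesn1 at -2.28 and 0.32, Trp53inp1 at -0.10 and 1.80, and Plk2 at 2.49 and 0.48.

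With pancreatic RNA as a block in the fit, 18 members were called, 16 of them among the 17. The fit to the 5 arrays without it had 1 knockout mouse per treatment and a spread taken from the 2 treated wild-type arrays. The number of members called in it is therefore not given. In that fit Cdkn1a changed by -1.21 in knockout mice after methotrexate. Replicate 1 of the treated knockout was the array without pancreatic RNA and also had the highest neutrophil markers, at a mean log2 signal of 6.98 against 4.95 and 4.93 in replicates 2 and 3. Leaving it out gave 17 called members, 15 of them the same. The share of all genes called was not computed for that fit or for the fit with pancreatic RNA as a block.

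**Figure D4:**
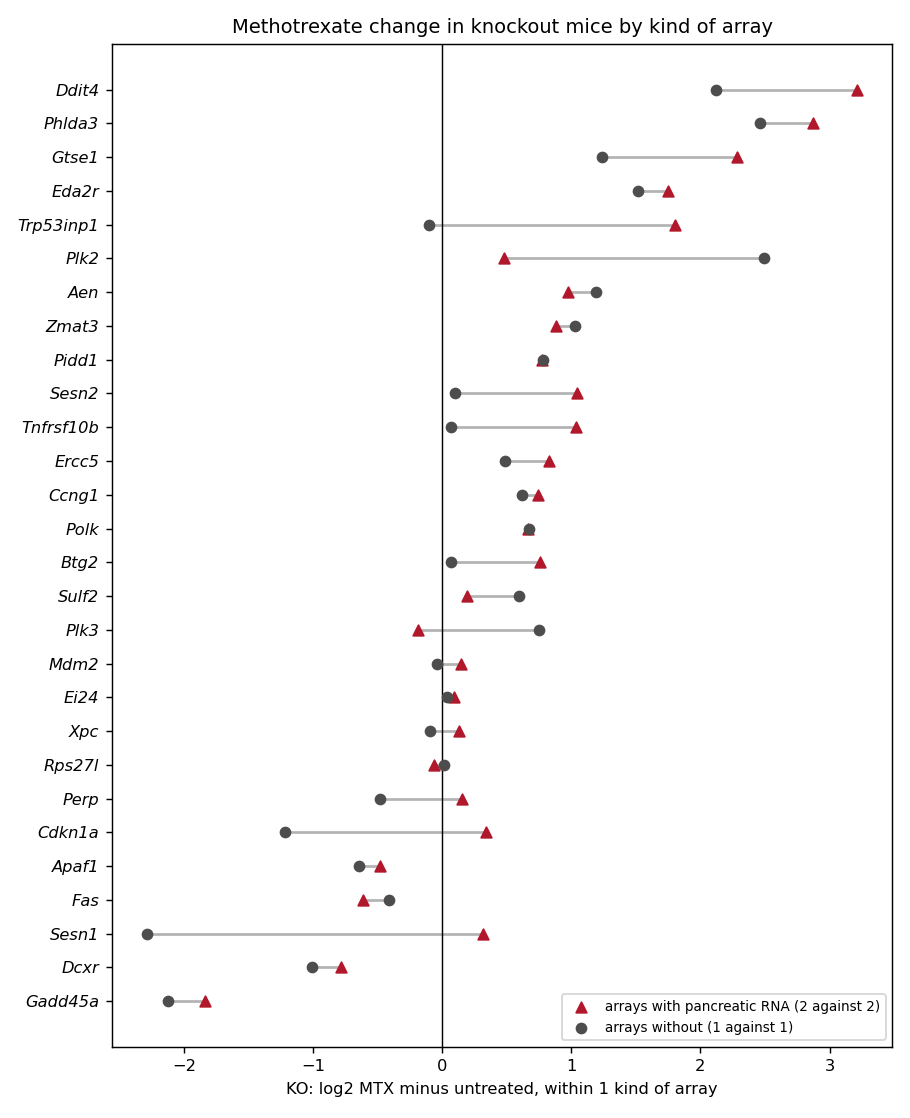
Log2 change after methotrexate in knockout mice (x axis) for the 28 members, computed within arrays that held pancreatic RNA (triangles, means of 2 treated and 2 untreated arrays) and within those that did not (circles, 1 against 1). Points have no error bars because a circle rests on 2 mice. The 2 symbols lie close together for Phlda3, Eda2r, Aen, Zmat3, Pidd1, Ccng1, Polk and Gadd45a, and on opposite sides of 0 for Cdkn1a, Sesn1 and Trp53inp1, among others.

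The cell types of the tissue changed in the same comparison. Of the marker lists, 7 of 8 fibroblast genes rose and 1 fell, and their mean log2 signal was 9.25 to 9.33 in treated knockout mice, against 7.65 to 8.06 in untreated knockout mice. All 7 macrophage and monocyte markers rose, with a mean of 8.15 to 8.28 against 6.33 to 6.55. Of 6 endothelial markers 5 rose, with a mean of 7.44 to 7.80 against 6.49 to 6.68. Markers of epithelium of all types fell in 5 of 8 genes and rose in 1, with a mean of 10.1 to 10.4 against 10.5 to 10.8. The part of this shift in cell types in the members' changes was not tested.

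In wild-type mice, no member passed limma's test after methotrexate. The share called was 0 of 28, against 0.0744% of all genes (14 genes), and at an unadjusted p under 0.05 it was 4 of 28, against 11.7% of all genes. With array weights in the fit, 4 members were called, and the share of all genes called in that fit was not computed. The median log2 change of the members was 0.06, against 0.00 for all genes. The smallest p-values were those of Mdm2, Ercc5 and Ddit4.

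Mdm2 read 7.77, 7.81 and 7.90 in treated wild-type mice, against 8.15, 8.32 and 8.13 in untreated wild-type mice. All treated arrays were lower, but the change of -0.37 ± 0.12 did not pass over all genes (limma adjusted p = 0.291). Ercc5 changed by 0.33 ± 0.11 (adjusted p = 0.307). Ddit4 had 6.29, 6.35 and 6.54 in treated wild-type mice, against 5.24, 5.53 and 5.82 in untreated wild-type mice, a change of 0.86 ± 0.32 (limma adjusted p = 0.348). Cdkn1a was at 10.03, 9.90 and 10.28 in treated and at 10.16, 10.15 and 9.74 in untreated wild-type mice, with a change of 0.05 ± 0.27 (95% interval -0.55 to 0.65). Arrays did not overlap for 3 members in the upward direction and 3 in the downward direction, where 13.5% and 9.18% of all genes were so.

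After methotrexate, knockout and wild-type mice differed in most members. Of 28 members, 14 were higher and 4 lower in treated knockout than in treated wild-type mice, a share of 64.3% against 36.9% of all genes (20.2% higher and 16.8% lower). A called difference of at least 1 on the log2 scale was reached by 7 members and by 17.4% of all genes. Arrays did not overlap for 16 members in the upward and 4 in the downward direction, where 24.2% and 22% of all genes were so. The median log2 difference was 0.55, against 0.00 for all genes. This comparison uses the same treated knockout arrays as the one above, so the 2 sets of values are not independent.

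The largest difference was that of Plk2, with 8.32, 8.69 and 8.58 in treated knockout mice, against 5.54, 6.04 and 5.32 in treated wild-type mice (2.89 ± 0.63, limma adjusted p = 3.19e-03). Within 1 kind of array the difference was 2.88 without and 2.59 with pancreatic RNA. Phlda3 differed by 2.71 ± 0.13 (limma adjusted p = 6.56e-08), with 4.87, 5.32 and 5.33 in treated wild-type mice, all far below the treated knockout arrays given above. Ddit4 differed by 2.61 ± 0.32 and Trp53inp1 by 2.07 ± 0.45, the second at 6.73, 6.67 and 6.61 in treated wild-type mice. For Trp53inp1 the difference was 0.65 in arrays without and 2.78 in arrays with pancreatic RNA. Eda2r, at 3.54, 4.04 and 3.79 in treated wild-type mice, differed by 1.53 ± 0.18. Gtse1 differed by 1.34 ± 0.32, and 1 treated wild-type array, replicate 2, stood at 6.32 and the others at 5.26 and 5.34. That array also had the highest proliferation markers among wild-type mice, at a mean log2 signal of 8.47. Gadd45a was lower, by -1.83 ± 0.19, with 7.10, 6.58 and 7.24 in treated wild-type mice.

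The other members called in this comparison changed by less than 1 on the log2 scale. Higher in treated knockout mice were Aen (0.99), Zmat3 (0.98), Btg2 (0.92), Sesn2 (0.89), Polk (0.74), Ccng1 (0.70), Ercc5 (0.64) and Pidd1 (0.60). Lower were Dcxr (-0.77), Fas (-0.73) and Apaf1 (-0.68). Dcxr lost its call without replicate 1 of the treated knockout (adjusted p = 0.0541) or replicate 1 or 3 of the treated wild type (0.0662 and 0.0513). Pidd1 lost it without replicate 1 of the treated knockout (adjusted p = 0.0549) or replicate 3 of the treated wild type (0.0633).

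Mdm2 was higher by 0.33 ± 0.12 in treated knockout than in treated wild-type mice, with no overlap, and fell just short over all genes (limma adjusted p = 0.0524). Without replicate 1 of the treated knockout the difference was 0.45 (limma adjusted p = 7.86e-03). Across the fits that left out 1 array, however, its adjusted p was up to 0.2025. Within 1 kind of array the difference was 0.09 without and 0.46 with pancreatic RNA. After methotrexate Mdm2 changed by 0.08 in knockout and by -0.37 in wild-type mice. Cdkn1a differed by -0.01 ± 0.27 (95% interval -0.61 to 0.59, adjusted p = 0.985). Btg2 (adjusted p = 0.361), Sesn2 (0.306) and Ercc5 (0.0766) lost their call when the arrays with pancreatic RNA were left out.

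Without treatment, no member differed between knockout and wild-type mice in limma's test, where 0.0106% of all genes (2 genes) passed. At an unadjusted p under 0.05 it was 2 of 28 members, against 6.19% of all genes. With array weights 2 members were called, and the share of all genes called in that fit was not computed. Arrays did not overlap for 4 members upward and 2 downward, against 7.47% and 5.63% of all genes. The 3 smallest p-values belonged to Sulf2 (-0.34 ± 0.12), Ercc5 (0.26 ± 0.11) and Aen (0.40 ± 0.18), each with an adjusted p of 0.786. Cdkn1a differed by 0.22 ± 0.27 and Mdm2 by -0.12 ± 0.12 (limma adjusted p = 0.892 and 0.859). Ddit4 read 6.04, 5.83 and 6.58 in untreated knockout mice, against 5.24, 5.53 and 5.82 in untreated wild-type mice, a difference of 0.62 ± 0.32 (adjusted p = 0.788).

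Whether the methotrexate effect itself differed between the genotypes was tested by subtracting the wild-type effect from the knockout effect. Of 28 members 7 passed, 5 higher and 2 lower, a share of 25% against 23.8% of all genes (11.8% higher and 12% lower), so the members passed this test about as often as genes in general. At an unadjusted p under 0.05 it was 18 members, against 33.3% of all genes. Their median difference was 0.47 on the log2 scale, against 0.01 for all genes. Phlda3 differed by 2.70 ± 0.19 (limma adjusted p = 2.77e-06), made of a change of 2.73 in knockout and 0.03 in wild-type mice. Eda2r differed by 1.79 ± 0.26, from 1.68 in knockout and -0.12 in wild-type mice. For Ddit4 the difference was 1.99 ± 0.45 (limma adjusted p = 7.28e-03), from 2.85 in knockout and 0.86 in wild-type mice.

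Zmat3 (0.74 ± 0.20) and Polk (0.57 ± 0.18) had smaller positive differences. Gadd45a differed by -1.55 ± 0.26 (limma adjusted p = 1.12e-03), from -1.93 in knockout and -0.38 in wild-type mice, and Dcxr by -1.07 ± 0.32, from -0.86 and 0.21. Cdkn1a (-0.23 ± 0.39, adjusted p = 0.752) and Mdm2 (0.45 ± 0.17, adjusted p = 0.0825) did not pass. Without replicate 1 of the treated knockout, 11 members passed, 6 of them among the 7, and Mdm2 was one of the 11 (0.57, adjusted p = 0.0151). The share of all genes called in that fit was not computed. Across the fits that left out 1 array, Mdm2 differed by 0.36 to 0.57, with a limma adjusted p of up to 0.1859. Its smallest difference under any setting was 0.27. The calls of Polk and Dcxr were lost in 8 and 5 of the 12 fits that left out 1 array, with an adjusted p of up to 0.0999 and 0.0750. The call of Polk was also lost with the replicate number as a block (adjusted p = 0.0573) or pancreatic RNA as a block (0.0554). Without the arrays that held pancreatic RNA, Ddit4 (0.95, adjusted p = 0.0623), Zmat3 (0.69, 0.202) and Polk (0.53, 0.189) lost their call, while Cdkn1a gained one (-1.20, adjusted p = 0.0315).

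Other genes of the p53 pathway were taken from 2 further lists. Of 17 measured regulators of p53, 1 rose and 1 fell in knockout mice after methotrexate, which is 11.8% against 34.8% of all genes. Hipk2, a kinase that phosphorylates p53, fell by 0.86 ± 0.24 (limma adjusted p = 0.0158). Rpl5, a ribosomal protein that can bind Mdm2, rose by 0.47 ± 0.13, but it was read by the brightest of several probe sets annotated to it, and genes of ribosomal proteins have near-identical copies, so its value is uncertain. Of 22 further targets, 7 rose and 4 fell, a share of 50% with a median log2 change of 0.18.

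Thbs1, the matrix protein thrombospondin 1, had the largest change among the further targets. It read 10.77, 10.79 and 11.22 in treated knockout mice, against 7.45, 7.56 and 8.05 in untreated knockout mice, a rise of 3.24 ± 0.17 (limma adjusted p = 1.07e-07). Psrc1, a protein of the mitotic spindle, rose by 1.61 ± 0.24 and the autophagy gene Dram1 by 1.27 ± 0.23. Ccng2, a relative of cyclin G1 linked to quiescence, fell by 1.47 ± 0.25. In wild-type mice 0 of the 17 regulators and 0 of the 22 further targets passed limma's test, where 0.0744% of all genes passed.

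Between treated knockout and treated wild-type mice, 7 further targets were higher and 2 lower, which is 40.9% against 36.9% of all genes and near the general rate. The largest were Thbs1 at 3.69 ± 0.17, Dram1 at 2.02 ± 0.23, Psrc1 at 1.31 ± 0.24 and Ccng2 at -1.12 ± 0.25. Of the regulators 11.8% were called: Ppm1d, a phosphatase that switches p53 off, was higher by 0.67 ± 0.17 and Hipk2 lower by -0.70 ± 0.24. No gene of these lists passed between untreated genotypes, where 0.0106% of all genes passed. In the difference of the methotrexate effect between genotypes 4 further targets were higher and 1 lower, which is 22.7% against 23.8% of all genes and no more than the general rate. The largest were Thbs1 (3.66 ± 0.24), Dram1 (1.67 ± 0.33), Psrc1 (1.12 ± 0.34) and Siva1 (0.75 ± 0.22).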

How the data were processed

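RNA of 12 jejuna was measured on Affymetrix arrays. The deposited values are log2 signals that the authors made with RMA (background correction, quantile normalisation and summarisation of probes), per the submitters' processing notes; its version is not given in the sources used here. From there, 1 single-gene probe set per gene was kept, the brightest where a gene had several, which gave 18820 genes from 35556 probe sets (21218 with 1 gene, 1881 with several and 12457 unnamed). All 12 arrays entered 1 linear model with a mean per group with limma 3.58.1 under R 4.3.3 (functions lmFit and eBayes), leaving 8 residual degrees of freedom. P-values were adjusted by Benjamini-Hochberg over all genes, and a call is an adjusted p under 0.05 with no fold minimum. The model was also run on simulated data, drawn as independent normal values with the same spread in all groups. Those data held neither the kinds of array nor the correlation between same-numbered arrays, so that run does not bear on them. The members, their roles and the further lists were chosen with earlier results of these data known. Every member could be named; members called with a log2 change of at least 1, and Cdkn1a and Mdm2, are given with each array, and of the further lists the called genes with the 4 largest changes. P-values rest on the spread between arrays within groups, pooled over the 4 groups and drawn by eBayes towards that of all genes. Precision is limited by how many arrays there are. The same replicate numbers recur in the 4 groups. Deviations of same-numbered arrays from their group means correlated over 0.1 in 15 of 18 cases, at -0.49 to 0.67. All 3 numbers did so between treated and untreated knockout mice (0.50, 0.29 and 0.43) and between the untreated genotypes (0.67, 0.50 and 0.50). In the comparisons with treated wild-type mice replicate 3 correlated below 0. The same-numbered array correlated best in 11 of the 18 cases. Replicates 2 and 3 held pancreatic RNA and replicate 1 did not, except in treated wild-type mice, where only replicate 2 held it. The part of pancreatic RNA in these correlations was not tested. The model above held no pairing term, and the replicate number was a block only in an alternative fit. Blocked values are given where they end a call. Alternatives were quantile normalisation, median centring, a dim-gene filter, other probe set choices, only the groups compared, array weights, trended variance, replicate or pancreatic RNA as a block, and arrays left out. Levels of different genes were not compared.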

Additional observations from a re-analysis of the deposited data

Results flagged for a closer look

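The methotrexate effect differed between knockout and wild-type mice for 7 of 28 members in limma's test of the difference itself, a share of 25% against 23.8% of all genes, so members passed about as often as genes in general. The difference (effect in knockout mice minus effect in wild-type mice, log2) was 2.70 for Phlda3, a repressor of Akt, 1.99 for Ddit4, an inhibitor of mTORC1, and 1.79 for Eda2r, a receptor of the TNF receptor family. It was 0.74 for Zmat3 and 0.57 for Polk, and negative for Gadd45a (-1.55) and Dcxr (-1.07). In the same test 10 of 12 enterocyte markers were lower and 7 of 7 macrophage markers higher, and their part in these differences was not tested.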

How the results depend on the processing

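None of the members called with all 12 arrays, nor Cdkn1a or Mdm2, changed direction with a call under any setting tried. Direction was not compared for every member that gained a call only under another setting. With a log2 fold minimum of 1, 6 members were called in knockout mice after methotrexate and 7 between treated knockout and wild-type mice. With array weights, 4 were called in wild-type mice after methotrexate, 2 between untreated genotypes and 19 for the difference of the effects, for which quantile normalisation gave 11. For these and the other alternative fits the share of all genes called was not computed. Leaving out 1 array gave 12 to 17 called members in knockout mice, 0 in wild-type mice, 16 to 18 between treated genotypes, 0 between untreated genotypes and 5 to 11 for the difference of the effects. With the replicate number as a block the counts were 16, 0, 19, 0 and 9, and Mdm2 passed between treated genotypes (adjusted p = 0.0409). Of the called members, 9 of 17 in knockout mice, 13 of 18 between treated genotypes and 3 of 7 for the difference of the effects passed in every setting other than the fold minimum. The fit with only the groups compared could not be made for the difference of the effects, which uses all 4 groups. The cause of these changes was not tested. With 3 mice per group, and pancreatic RNA in 7 arrays, small changes are the least certain.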

Other observations

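Ddb2, a DNA damage sensor of nucleotide excision repair, was read only by 2 probe sets that are also annotated to Acp2. Their log2 change after methotrexate was -0.02 and -0.16 in knockout mice (limma adjusted p = 0.912 and 0.495) and 0.06 and 0.27 in wild-type mice. A second probe set of Zmat3, shared with 4930429B21Rik, changed by -0.13 in knockout mice (limma adjusted p = 0.640), whereas the probe set of Zmat3 alone rose by 0.93. Outside the set, adipocyte markers were highest in replicate 1 of the untreated wild-type mice, at a mean log2 signal of 7.38, against 4.56 to 5.52 in the other 11 arrays.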
